A study of Mus musculus with 6 samples.

Results

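The genes described here encode the secreted and membrane-bound metalloproteases that cut the extracellular matrix and cell-surface proteins, together with their tissue inhibitors. The members are all protein-coding genes whose symbol begins with Mmp, Adam, Adamts or Adamtsl and a digit, or is one of Timp1 to Timp4. Their symbols were read from GENCODE M21, an annotation of the mm10 build, and 61 of the 21666 genes in the count matrix of the whole series met the rule: 18 Mmp, 4 Timp, 18 Adam, 16 Adamts and 5 Adamtsl genes. The measurements are RNA-seq counts of cultured skeletal muscle satellite cells, the stem cells of muscle, taken from mice and kept for 2 days under differentiation. There were 3 libraries from wild-type (WT) mice and 3 from mice with a knockout (KO) of the long noncoding RNA lncMREF. The sources used here do not name the strain, the age and sex of the mice or the knockout allele, nor whether each library came from its own animal. P-values therefore rest on the spread among the 3 libraries of a group, and that spread may be only technical.

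As background, matrix metalloproteinases (Mmp) are made as inactive precursors that hold a catalytic zinc ion, and together they can degrade collagens, elastin, laminins and fibronectin. Timp proteins block the active site, and Timp2 also bridges Mmp14 at the cell surface to the precursor of Mmp2, which Mmp14 then activates. Adam proteins are membrane-anchored and shed growth factors, receptors and adhesion proteins from the cell surface, although some have lost the catalytic site and act as adhesion or ligand-binding proteins. Adamts proteins are secreted and process proteoglycans, procollagens and fibrillins, and Adamtsl proteins share their accessory domains without the protease domain. In muscle these enzymes are known for remodelling the matrix around satellite cells during repair.

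Library totals ran from 17919826 to 28430678 counts. Levels are given in CPM, a gene's count relative to its library's total after TMM scaling, and fold changes are KO over WT. A signed value beside an SE or an adjusted p is a log2 fold change, ± is the SD over 3 libraries, and coordinates are of the mm10 build. A gene was called at a Benjamini-Hochberg adjusted p under 0.05 in edgeR's quasi-likelihood test over the 15518 genes that passed a filter on low counts. The knockout itself was not checked, because the sources used here do not tie lncMREF to a gene identifier. The markers of satellite cells and myoblasts were present in every library, with summed levels of 3793 to 3909 CPM over 10 genes in WT and 1231 to 1261 CPM in KO. The sum hides a split, with 6 genes lower, Pax7 and Msc higher, and Myf5 and Vcam1 not called. Pax7, a marker of satellite cells, went from 10.5 ± 0.782 CPM in WT to 15.1 ± 0.751 CPM in KO (0.53, adjusted p 1.12e-05). Endothelial markers summed to 336 to 342 CPM in WT and 83.1 to 88 CPM in KO, macrophage markers to 106 to 114 and 317 to 326 CPM, and Schwann cell markers to 462 to 463 and 909 to 933 CPM. In these bulk libraries fewer cells of a type and less RNA per cell cannot be told apart.

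Of the 61 members, 54 passed the filter and were tested. In KO, 28 were called higher and 17 lower, and 9 were not called. The calls cover 83.3% of the members tested, beside 66.7% of all genes tested, of which 33.7% were called higher and 33% lower. Changes of over 2-fold were called upward for 12 members (22.2%, beside 8.56% of all genes) and downward for 4 (7.41%, beside 9.38%). The median log2 fold change was 0.26 over the tested members and 0.021 over all genes. These counts describe genes that passed the filter and are no test of the group. The counts by family, list and marker set below are to be read beside the same shares of all genes. With library size as the only scaling, the median of all genes moved to 0.192, 66.1% of all calls were higher in place of 50.5%, and the members split 31 higher to 14 lower. Adamts3 was called although its WT and KO values overlapped, at 0.223, 0.369 and 0.672 CPM in WT and 0.589, 1.08 and 0.79 CPM in KO.

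**Figure D1:**
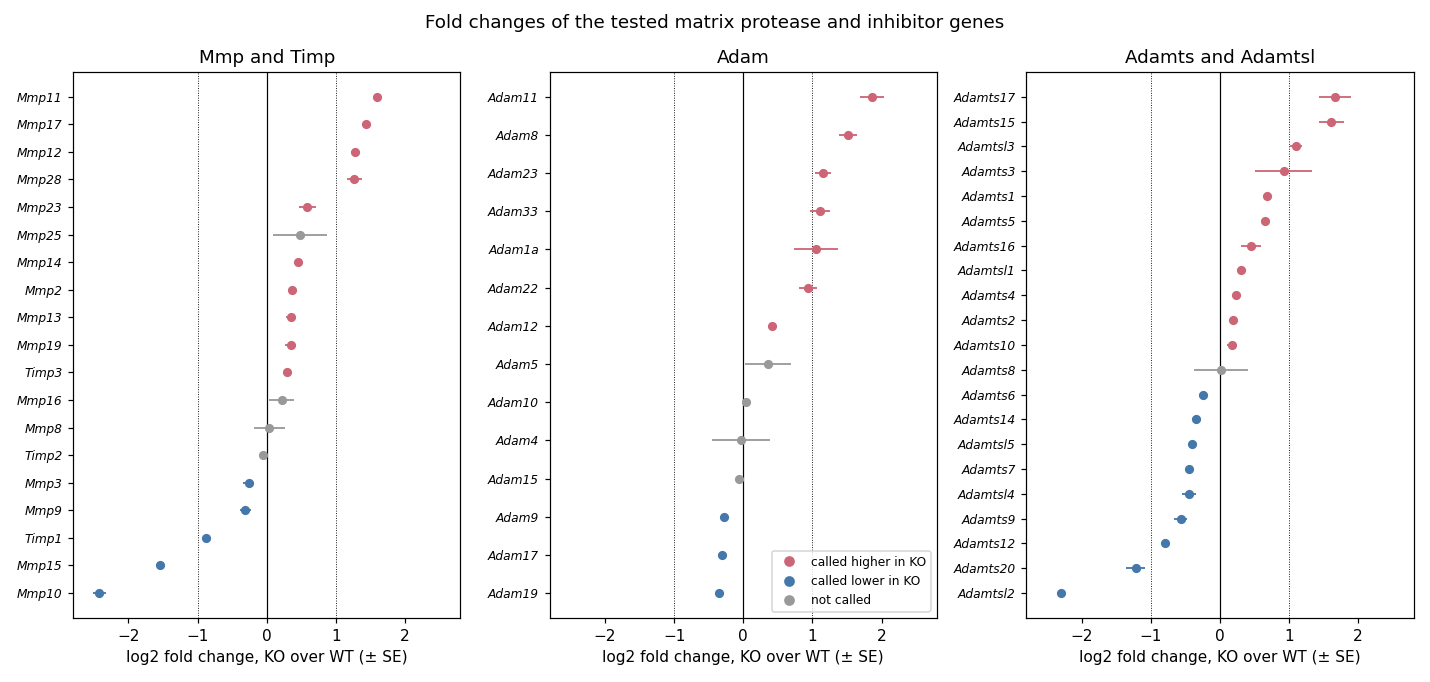
Log2 fold change of KO over WT with its standard error for the 54 tested members by family, with red points called higher in KO, blue points called lower, grey points not called, and dotted lines at a 2-fold change. Adamtsl2 and Mmp10 lie furthest to the left at -2.30 and -2.42, and Adam11 furthest to the right at 1.86.

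Neighbouring genes of an Mmp cluster on chromosome 9 moved in different directions. Within it lie Mmp13, Mmp12, Mmp3, Mmp10 and Mmp8, all on the plus strand, and their promoter sequences are printed because 3 of these 5 genes hold a short motif close to their first annotated start, and Mmp12 holds it only before a second start inside the gene, while their RNA levels moved in different directions. Each line holds the 120 bases before a RefSeq transcript start (GRCm38.p6), 5′ to 3′, and capitals mark a match to the AP-1 motif TGANTCA, the element bound by Fos and Jun dimers.
Mmp13, chr9:7272394-7272513, plus strand: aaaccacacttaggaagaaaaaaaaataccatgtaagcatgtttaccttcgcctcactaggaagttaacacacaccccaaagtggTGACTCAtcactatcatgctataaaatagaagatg
Mmp12 upstream start, chr9:7344277-7344396, plus strand: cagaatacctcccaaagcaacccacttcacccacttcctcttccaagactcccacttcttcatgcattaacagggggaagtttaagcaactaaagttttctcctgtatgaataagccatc
Mmp12 downstream start, chr9:7347254-7347373, plus strand: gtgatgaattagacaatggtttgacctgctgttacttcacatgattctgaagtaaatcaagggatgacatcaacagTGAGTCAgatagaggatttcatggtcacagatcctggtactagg
Mmp3, chr9:7445702-7445821, plus strand: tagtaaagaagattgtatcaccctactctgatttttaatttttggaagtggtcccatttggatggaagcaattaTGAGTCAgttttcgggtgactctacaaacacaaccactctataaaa
Mmp10, chr9:7502222-7502341, plus strand: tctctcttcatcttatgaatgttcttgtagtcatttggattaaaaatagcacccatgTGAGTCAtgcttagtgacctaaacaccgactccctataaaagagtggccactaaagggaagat
Mmp8, chr9:7558309-7558428, plus strand: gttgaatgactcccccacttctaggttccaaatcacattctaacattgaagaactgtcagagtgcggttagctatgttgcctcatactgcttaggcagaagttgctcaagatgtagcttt
The match begins 35 bases before the start of Mmp13, 44 before the downstream start of Mmp12, 46 before that of Mmp3 and 63 before that of Mmp10. The upstream start of Mmp12, which lies 16 bases into the annotated gene, has no match in its 250 bases, and the downstream start lies 2993 bases into the gene. Over the 250 bases before each start, searched on both strands, 5 of the 7 cluster genes with an entry held the motif before at least 1 start (Mmp1b is the fifth), and Mmp8 and Mmp27 did not. Of 32 members elsewhere with an entry, 1 held it (Adam19). Counted by single promoter and not by gene, the share over all 32817 promoters was 6.75%. The TATA box letters TATAAA, on either strand at 12.4% of all promoters, were found for Mmp13, Mmp3, Mmp10 and Mmp1b in the cluster and for Adamts1 and Adamtsl2 outside it. A match of letters is a description of the sequence and no sign that a factor is bound.

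Along this cluster, Mmp12 rose, Mmp10 fell, and the genes between and beside them changed little. Mmp10 (ENSMUSG00000047562, chromosome 9, 7502352 to 7510240) encodes a stromelysin, which cuts proteoglycans and activates other Mmp precursors, and stood at 34.6, 33.8 and 32.6 CPM in WT replicates 1 to 3 and 6.02, 6.21 and 6.59 CPM in KO replicates 1 to 3. All WT libraries lay far above all KO libraries, a 5.37-fold fall with log2 -2.42 (SE 0.09, adjusted p 2.5e-23). The macrophage elastase gene Mmp12 (ENSMUSG00000049723, chromosome 9, 7344381 to 7369499) stood at 24.5, 26.2 and 25 CPM in WT replicates 1 to 3 and 64.2, 62.7 and 57 CPM in KO replicates 1 to 3. It was higher in every KO library, by 2.44-fold (log2 1.28, SE 0.06, adjusted p 3.29e-19). Mmp13, a collagenase that cuts fibrillar collagen, went from 28.2 ± 1.38 CPM in WT to 36 ± 3.37 CPM in KO (0.35, SE 0.07), whereas the stromelysin Mmp3 went from 22.3 ± 0.493 CPM in WT to 18.6 ± 0.914 CPM in KO (-0.26, SE 0.08, adjusted p 0.00389). The Mmp3 call was lost with library size as the only scaling (-0.09, adjusted p 0.324). Mmp8, the neutrophil collagenase, stood at 1.94 ± 0.0689 and 1.99 ± 0.144 CPM in WT and KO and was not called (0.04, SE 0.22, adjusted p 0.897). Mmp1b and Mmp27 had 57 and 31 counts over the 6 libraries and were not tested. Mmp3 and Mmp10 are close paralogues that could share reads, and Mmp12 and Mmp1b share exonic bases on opposite strands.

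**Figure D2:**
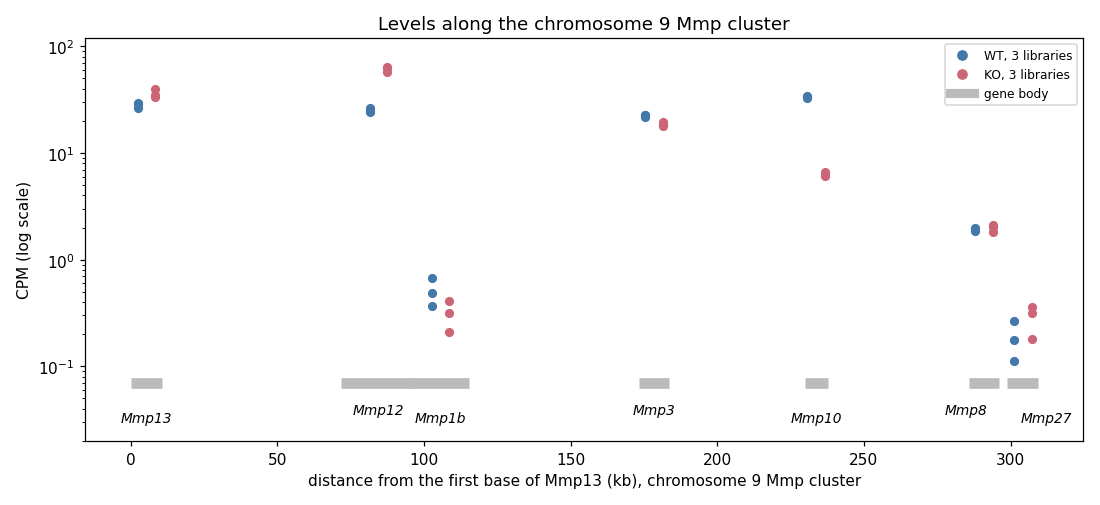
CPM of each library (log axis) along the Mmp cluster of chromosome 9, against the distance in kb from the first base of Mmp13; grey bars are gene bodies, and WT (blue) and KO (red) points are drawn just left and right of each gene's centre. The points of Mmp12 and Mmp10 separate in opposite directions, and those of Mmp8 overlap.

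The deposited counts came in a matrix and in 1 table per library, and the cluster was measured alike in both. For the 7 cluster genes the mean count of the per-library tables was 1.05 to 1.07 times that of the matrix. Over the 38 members with a matrix mean of at least 200 counts, only 6 had a ratio between 0.8 and its inverse (Mmp3, Mmp10, Mmp12 and Mmp13 of the cluster, Mmp9 and Adamts12), and the median ratio was 0.026. The cause of this disagreement was not tested. In the per-library tables Mmp10 changed by -2.43 (SE 0.09), Mmp12 by 1.3 (SE 0.07), Mmp13 by 0.35 (SE 0.08), Mmp3 by -0.22 (SE 0.08) and Mmp8 by 0.13 (SE 0.21). Both forms come from the same libraries, so the values are no further replicates. Of the 27 members tested in both forms, 12 had the same sign and stayed on the same side of the threshold, 5 lost their call, 1 gained one and 9 had the opposite sign, 3 of these called. The per-library value is given beside each member below that it changed. Where none is given, the 2 forms need not agree, since many tested members could not be compared. Timp1, Timp3, Mmp2, Mmp15, Adam12, Adamts1, Adamts4 and Adamts15 were among the members with a mean of 0 counts in the per-library tables. Mmp17, Adam9 and Adamts5 had means of 0.5 to 0.7 counts there. Adamtsl2 had a mean of 1.2 there, against 1333.8 in the matrix.

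The macrophage markers moved in the same direction as Mmp12, and their part in its rise was not tested. Of 10 such markers 8 were higher in KO, 2 were not called and none was lower. None of the markers was at 0 in any library. Cd68, a lysosomal protein of macrophages, went from 3.29 ± 0.319 CPM in WT to 15.5 ± 1.28 CPM in KO, and the leukocyte phosphatase Ptprc from 0.789 ± 0.0544 CPM in WT to 2.89 ± 0.496 CPM in KO. Adam8, a sheddase of myeloid cells, moved with the same markers, at 3.47, 3.74 and 3.66 CPM in WT and 10.5, 10.4 and 10.01 CPM in KO. The groups did not overlap (log2 1.51, SE 0.13, adjusted p 1.06e-12), but in the per-library tables Adam8 was not called (0.19, adjusted p 0.0934).

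Timp1 fell, Timp3 rose slightly and Timp2, the most abundant of the inhibitors in CPM, was not called. Timp1 (ENSMUSG00000001131, chromosome X, 20870166 to 20874735), a soluble inhibitor of most Mmp proteins, stood at 301, 265 and 323 CPM in WT replicates 1 to 3 and 162, 159.6 and 162 CPM in KO replicates 1 to 3. The WT libraries spread from 265 to 323 CPM and the KO libraries lay within a few CPM of each other, below all of WT. The fall was 1.84-fold, or log2 -0.88 (SE 0.05, adjusted p 1.89e-12). Timp3 (ENSMUSG00000020044, chromosome 10, 86300372 to 86349506), which binds to the matrix and also inhibits Adam17 and the aggrecan-cutting Adamts enzymes, stood at 158, 163 and 156 CPM in WT replicates 1 to 3 and 207, 176 and 203 CPM in KO replicates 1 to 3. KO replicate 2 was the lowest of its group and still above all WT libraries (0.30, SE 0.05, adjusted p 1.21e-05). Antisense transcripts cannot be told apart in Timp3, since 21.3% of its exonic bases are shared with Syn3 on the opposite strand and the sources used here do not say whether counting used strand. Timp2 (ENSMUSG00000017466, chromosome 11, 118301069 to 118355740) stood at 656, 652 and 634 CPM in WT replicates 1 to 3 and 638, 596 and 624 CPM in KO replicates 1 to 3, and the groups overlapped (-0.06, SE 0.04, adjusted p 0.168). With library size as the only scaling, Timp2 was called higher in KO (0.11, adjusted p 0.0194), and in the per-library tables lower (-0.55, adjusted p 0.0108). The per-library tables held a mean of 92.2 counts for Timp2, against 14172.2 in the matrix. Timp4 had 23 counts over the 6 libraries, with 1 to 8 in each, and was not tested.

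Mmp14 and Mmp2, the membrane-anchored activator and its gelatinase substrate, were the most abundant Mmp genes and both were higher in KO. Mmp14 (ENSMUSG00000000957, chromosome 14, 54431612 to 54445364) stood at 742, 750.0 and 693 CPM in WT replicates 1 to 3 and 984, 1027 and 986 CPM in KO replicates 1 to 3. Mmp2 (ENSMUSG00000031740, chromosome 8, 92827291 to 92853420) stood at 510.2, 498 and 491 CPM in WT replicates 1 to 3 and 623, 665 and 657 CPM in KO replicates 1 to 3. For both genes the lowest KO library lay above the highest WT library. The rises were 1.37-fold for Mmp14 (0.46, SE 0.04, adjusted p 7.16e-12) and 1.3-fold for Mmp2 (0.37, SE 0.04, adjusted p 6.38e-10). The per-library tables gave no call and the opposite sign for Mmp14 (-0.07, SE 0.39, adjusted p 0.888). That value rests on a mean of 13.3 counts, against 19285.3 in the matrix. Mmp2, at a mean of 0 counts there, could not be compared. In the matrix, Mmp14 and Mmp2 together made up 72.6% to 74% of the summed Mmp level in every library. Mmp9, the other gelatinase, was far lower at 22.9 ± 1.68 and 18.4 ± 0.354 CPM in WT and KO and fell by 0.31 on the log2 scale (SE 0.08, adjusted p 0.000777). That call was lost with library size as the only scaling (-0.14, adjusted p 0.112), and the sign turned in the per-library tables (0.11, adjusted p 0.274).

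The summed Mmp level was higher in every KO library than in any WT library, and the summed Timp level was lower with TMM scaling but overlapped with library size as the only scaling. Neither sum was tested. Summed over 18 genes, Mmp levels were 1695, 1690.2 and 1631 CPM in WT replicates 1 to 3 and 2206, 2285.5 and 2246 CPM in KO replicates 1 to 3. Timp levels over 4 genes were 1116, 1080 and 1113 CPM in WT and 1008, 932 and 989 CPM in KO. Scaled by library size alone, the Timp sums were 1016 to 1051 CPM in WT and 989.65 to 1066 CPM in KO, and the Mmp sums 1538 to 1598 and 2335 to 2427 CPM. The ratio of Mmp to Timp CPM, which does not depend on the scaling, was 1.47 to 1.56 in WT and 2.19 to 2.45 in KO, without overlap. Per kb of annotated exons, the level of Timp1 was 334 ± 32.5 CPM in WT and 182 ± 1.54 in KO (SD, n = 3 each). On the same scale Timp2 stood at 166 ± 2.96 and 159 ± 5.44, Mmp2 at 148 ± 2.81 and 192 ± 6.65, and Mmp14 at 122 ± 5.21 and 168 ± 4.08. Timp1 thus had the highest per-kb level of these 4 genes in WT, by more than the spread between libraries. In KO, the per-kb levels of Mmp2 and Timp1 differed by little more than their standard deviations.

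**Figure D3:**
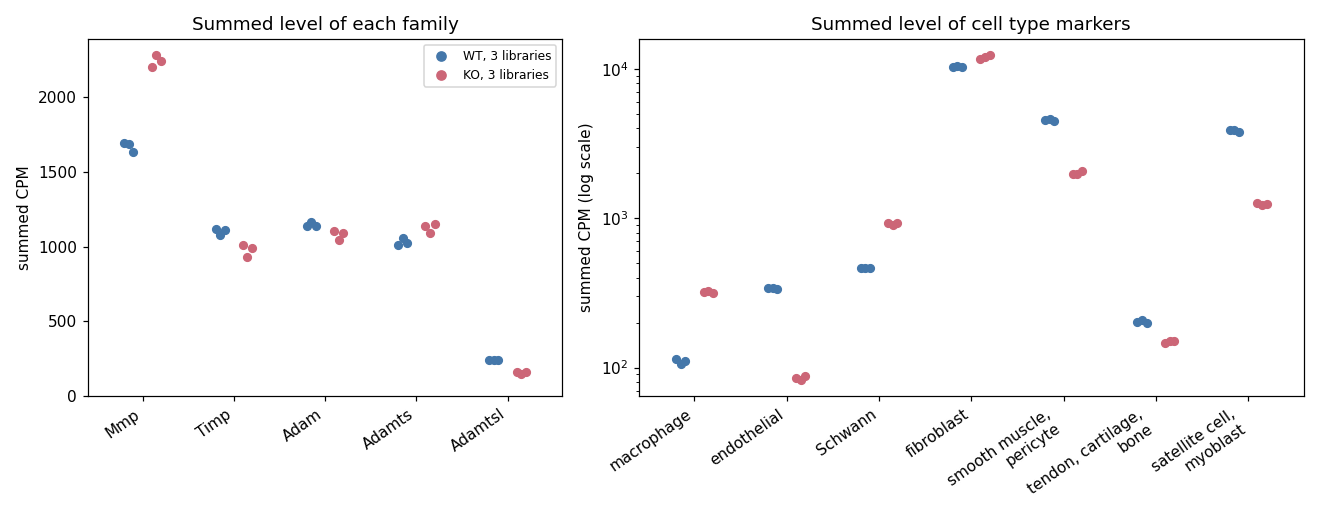
Left, summed CPM of each family in every library (linear axis from 0); right, summed CPM of the marker lists of 7 cell types (log axis), with WT in blue and KO in red. Summed Mmp levels lie higher in KO and summed Timp levels lower (overlapping with library size as the only scaling, with which the Adam sums turn to higher in KO). Summed macrophage, Schwann cell and fibroblast markers lie higher in KO. Those of the endothelial, smooth muscle and pericyte, tendon, cartilage and bone, and satellite cell and myoblast lists lie lower. The fibroblast list held 4 genes called higher and 4 lower, and the tendon, cartilage and bone list 4 higher and 2 lower.

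The other membrane-type enzymes split. Mmp15, a transmembrane enzyme, stood at 145, 149.6 and 152 CPM in WT replicates 1 to 3 and 50.8, 52 and 49.5 CPM in KO replicates 1 to 3. Every KO library lay far below every WT library, a 2.93-fold fall (-1.55, SE 0.05, adjusted p 4.22e-25). Mmp17, which is held in the membrane by a lipid anchor, moved the other way, at 70.6, 70.2 and 68.7 CPM in WT replicates 1 to 3 and 186, 178 and 199 CPM in KO replicates 1 to 3. That is a 2.69-fold rise (1.43, SE 0.05, adjusted p 3.63e-24). In WT the level of Mmp15 was above that of Mmp17 per kb of exons (27.6 ± 0.657 against 10.6 ± 0.154 CPM), and in KO below it (9.4 ± 0.233 against 28.4 ± 1.64). Mmp16 (0.22, adjusted p 0.281) and Mmp25 (0.48, adjusted p 0.285) stood below 4 CPM in both groups and were not called.

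Among the remaining Mmp genes, Mmp11 and Mmp28 rose by over 2-fold. Mmp11, a stromelysin that is activated inside the cell by furin, stood at 53.9, 49.1 and 55.7 CPM in WT replicates 1 to 3 and 157, 163 and 160.2 CPM in KO replicates 1 to 3. Its libraries formed groups with a 3.02-fold difference (1.59, SE 0.05, adjusted p 5.15e-25). Mmp28, also called epilysin, stood at 6.45, 5.69 and 6.53 CPM in WT and 15.9, 14.3 and 15 CPM in KO (1.27, SE 0.11), with 12% of its exonic bases shared with an opposite-strand gene. In the per-library tables neither Mmp11 (0.19, adjusted p 0.48) nor Mmp28 (0.13, adjusted p 0.106) was called. Mmp11 had a mean of 44.5 counts there, against 2371.3 in the matrix, and Mmp28 had 879.5 against 237. Mmp23 (0.59, SE 0.12) and Mmp19 (0.35, SE 0.08) rose by smaller amounts, and 28.3% of the exonic bases of Mmp19 are shared. In all, 9 of 16 tested Mmp genes were called higher, 4 lower and 3 not at all, with a median log2 fold change of 0.36. The calls cover 81.2% of them, beside 66.7% of all genes.

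**Figure D4:**
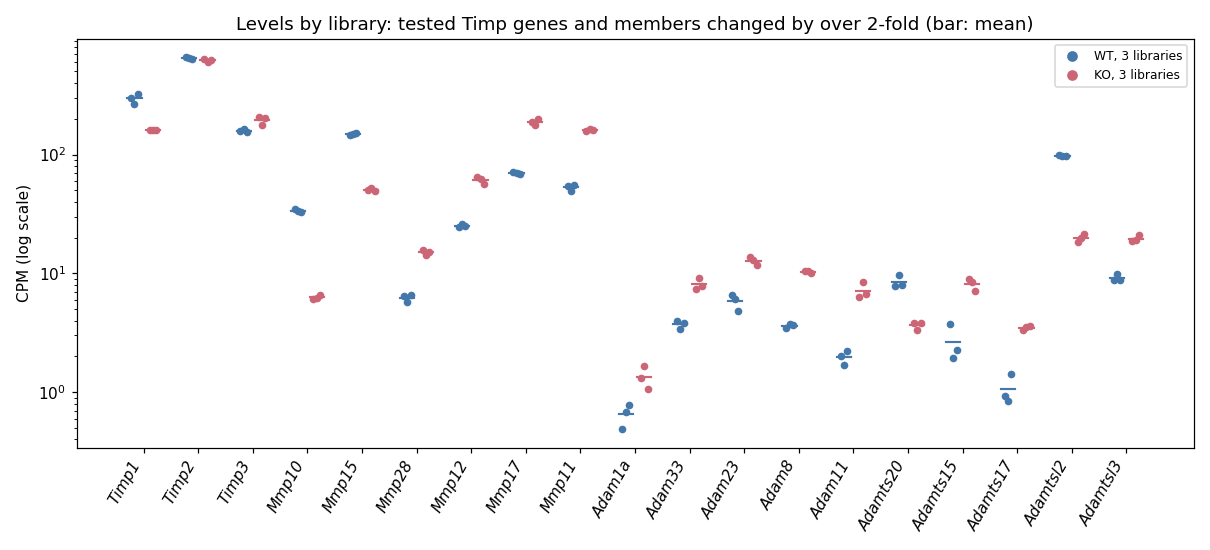
CPM of every library (points, log axis) and group means (bars) for the 3 tested Timp genes and the 16 members called with a change of over 2-fold, WT in blue and KO in red. The groups of every gene drawn separate except those of Timp2.

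The most abundant Adam genes changed little. Adam9, a widely expressed sheddase, stood at 299.7, 305 and 294 CPM in WT replicates 1 to 3 and 256, 234 and 248 CPM in KO replicates 1 to 3. Adam19, also known as meltrin beta, stood at 289, 303 and 286 CPM in WT replicates 1 to 3 and 239.9, 215 and 235 CPM in KO replicates 1 to 3. Adam10, which makes the ligand-dependent cut in Notch receptors, stood at 197, 199 and 199 CPM in WT replicates 1 to 3 and 210.2, 198 and 205 CPM in KO replicates 1 to 3. Adam9 (-0.28, SE 0.04, adjusted p 4.63e-07) and Adam19 (-0.35, SE 0.04, adjusted p 2.08e-08) were lower in every KO library of the matrix, but Adam19 was not called in the per-library tables (-0.13, SE 0.29, adjusted p 0.727). Adam19 had a mean of 25 counts there, against 5844.7 in the matrix. Adam9 could not be compared, with a mean of 0.5 counts there against 6109.3 in the matrix. Adam10 overlapped between the groups and was not called (0.04, SE 0.04, adjusted p 0.359), but was called higher with library size as the only scaling (0.22, adjusted p 2.84e-05). Adam17, the sheddase of tumour necrosis factor and of several ligands of the epidermal growth factor receptor, went from 119 ± 3.76 CPM in WT to 96 ± 2.06 CPM in KO (-0.31, SE 0.05), whereas the per-library tables called it higher (0.47, adjusted p 2.91e-06). Adam12, or meltrin alpha, which is known from regenerating muscle, rose from 122 ± 4.55 CPM in WT to 163 ± 11.3 CPM in KO (0.42, SE 0.05). Adam15 was not called at -0.06 (adjusted p 0.24), was called higher with library size as the only scaling (0.11, adjusted p 0.046) and in the per-library tables (0.85, adjusted p 3.42e-13), and shares 20.6% of its exonic bases with an opposite-strand gene, as Adam19 does 10.1% with other genes.

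Larger changes were found among Adam genes of low level, and all of them were rises. Adam11, Adam22 and Adam23 lack the catalytic zinc site and are known as receptors in the nervous system. Adam11 stood at 2.0, 1.68 and 2.2 CPM in WT and 6.3, 8.44 and 6.75 CPM in KO, a 3.62-fold rise (1.86, SE 0.17, adjusted p 1.07e-11). Adam23 stood at 6.59, 6.05 and 4.81 CPM in WT and 13.8, 12.9 and 11.7 CPM in KO (1.15, SE 0.12), and Adam22 went from 4.3 ± 0.213 CPM in WT to 8.25 ± 0.712 CPM in KO, just under the 2-fold mark at 0.94 (SE 0.13). All 3 were separate between the groups. Schwann and glial markers moved the same way, with 6 of 8 higher, 1 lower and 1 not called, and none at 0 in any library. Their part in the rise of these genes was not tested. The defining Schwann cell factor Sox10 went from 31.7 ± 1.14 CPM in WT to 123 ± 4.58 CPM in KO, and the lower marker was the neuregulin receptor Erbb3, from 244 ± 4.76 CPM in WT to 121 ± 8.33 CPM in KO. Adam33, a catalytic member known from mesenchymal cells, stood at 4.01, 3.37 and 3.84 CPM in WT and 7.34, 9.16 and 7.8 CPM in KO (1.11, SE 0.14). Adam1a was higher at 0.49, 0.684 and 0.784 CPM in WT and 1.31, 1.67 and 1.05 CPM in KO (1.05, SE 0.32, adjusted p 0.0047). This value is uncertain, since 63.7% of its exonic bases are shared with other genes, Mapkapk5 among them. Adam4 and Adam5 stood below 2 CPM in every library and were not called. Adam18, Adam1b, Adam21 and Adam32 had 6 to 21 counts over the 6 libraries and were not tested. Of 14 tested Adam genes 7 were higher, 3 lower and 4 not called (median 0.39), so 71.4% were called, beside 66.7% of all genes.

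Among the Adamts genes that cut aggrecan and versican, the large proteoglycans of the matrix, Adamts1 and Adamts5 rose by similar amounts. They are neighbours on chromosome 16, with 53059 bases between them. Adamts1 (ENSMUSG00000022893, chromosome 16, 85793827 to 85803113) stood at 194, 194 and 183 CPM in WT replicates 1 to 3 and 309, 293 and 315 CPM in KO replicates 1 to 3, and Adamts5 (ENSMUSG00000022894, chromosome 16, 85856173 to 85901828) at 133, 149 and 145 CPM in WT replicates 1 to 3 and 228, 215 and 226 CPM in KO replicates 1 to 3. Neither gene's groups overlapped, and the rises were 1.61-fold (0.68, SE 0.04, adjusted p 4.45e-16) and 1.57-fold (0.65, SE 0.05, adjusted p 1.02e-14). Adamts4, an aggrecan-cutting enzyme, rose from 125 ± 3.72 CPM in WT to 146 ± 4.38 CPM in KO (0.23, SE 0.04). Adamts15, which also cuts versican, was low in WT and 3.06-fold higher in KO, at 3.74, 1.95 and 2.28 CPM in WT and 8.88, 8.4 and 7.11 CPM in KO (1.61, SE 0.18, adjusted p 6.88e-09). Its neighbour Adamts8, 20109 bases away on chromosome 9, was not called (0.02, SE 0.39, adjusted p 0.96) at 0.58 ± 0.209 and 0.607 ± 0.176 CPM in WT and KO.

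Adamts9 and Adamts20, a related pair of versican-cutting enzymes, both fell. Adamts20 stood at 7.88, 9.63 and 8.02 CPM in WT and 3.8, 3.3 and 3.85 CPM in KO, a 2.33-fold fall (-1.22, SE 0.14, adjusted p 1.74e-09). Adamts9 went from 16.9 ± 2.41 CPM in WT to 11.4 ± 1.24 CPM in KO, with WT replicate 2 the highest of its group (-0.57, SE 0.10). Of 7 proteoglycan-cutting members 4 were therefore higher, 2 lower and 1 not called, so 85.7% were called, beside 66.7% of all genes.

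Of the procollagen N-propeptidases, which trim the amino-terminal ends of fibrillar procollagens, 2 were called higher and 1 lower. Adamts2 rose from 91.9 ± 3.77 CPM in WT to 104 ± 5.42 CPM in KO (0.19, SE 0.05) and Adamts14 went from 55.5 ± 0.653 CPM in WT to 43.7 ± 0.341 CPM in KO (-0.34, SE 0.06), and the Adamts2 call was lost in the per-library tables (0.29, adjusted p 0.0732). Adamts3 (0.92, SE 0.41, adjusted p 0.0462) was no longer called in DESeq2 (0.93, adjusted p 0.122) or with no low-count filter (0.90, adjusted p 0.0559). Nor was it called when WT replicate 1 (0.60, adjusted p 0.235), WT replicate 2 (0.82, adjusted p 0.122), KO replicate 2 (0.65, adjusted p 0.252) or KO replicate 3 (0.94, adjusted p 0.0747) was left out. Its adjusted p ran from 0.0116 to 0.252 over the alternatives on the matrix.

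Adamts12 showed the largest fall in CPM among the other Adamts genes. Adamts12, which with Adamts7 can degrade cartilage oligomeric matrix protein, stood at 224, 234 and 228 CPM in WT replicates 1 to 3 and 134, 126 and 133 CPM in KO replicates 1 to 3. All KO libraries lay below all WT libraries (-0.80, SE 0.04, adjusted p 4.32e-18). Adamts7 went from 66.9 ± 0.706 CPM in WT to 49 ± 0.884 CPM in KO (-0.45, SE 0.05). Adamts17, linked to fibrillin microfibrils, rose 3.18-fold from a low level, at 0.935, 0.842 and 1.42 CPM in WT and 3.31, 3.54 and 3.58 CPM in KO (1.67, SE 0.23, adjusted p 1.06e-07). The per-library tables gave no call for Adamts17 and the opposite sign (-0.11, adjusted p 0.606). Adamts10 and Adamts6 also act on fibrillins, and changed by 0.17 (SE 0.07) and -0.25 (SE 0.05). The Adamts10 call (adjusted p 0.0236) did not hold in DESeq2 (0.16, adjusted p 0.0761), nor when WT replicate 3 (0.12, adjusted p 0.183) or KO replicate 1 (0.12, adjusted p 0.166) was left out, and the Adamts6 call did not hold with library size as the only scaling (-0.08, adjusted p 0.177). In the per-library tables Adamts10 was called lower (-0.15, adjusted p 0.0327) and Adamts6 had the opposite sign (0.31, adjusted p 0.117). Adamts16 rose by 0.45 on the log2 scale (SE 0.14).

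The deepest fall among Adamts and Adamtsl genes was that of Adamtsl2, a non-enzymatic protein that binds fibrillin and the latent TGF-beta binding proteins. Adamtsl2 (ENSMUSG00000036040, chromosome 2, 27079379 to 27108981) stood at 99.9, 96.8 and 97.4 CPM in WT replicates 1 to 3 and 18.5, 19.8 and 21.3 CPM in KO replicates 1 to 3. The libraries of each genotype lay close together and far from the other, a 4.94-fold fall (-2.30, SE 0.06, adjusted p 2.47e-27). Adamtsl3 moved in the other direction, at 8.81, 9.79 and 8.73 CPM in WT and 18.6, 19.2 and 20.9 CPM in KO (1.10, SE 0.09, adjusted p 1.09e-12). Adamtsl5 (-0.40, SE 0.05) and Adamtsl4 (-0.45, SE 0.10) fell, and Adamtsl1 rose (0.31, SE 0.07). The signs of Adamtsl5 (0.27, adjusted p 0.315) and Adamtsl4 (0.09, adjusted p 0.608) turned in the per-library tables. The 250 bases before the RefSeq start of Adamtsl2 hold the E-box letters CAGCTG, a form bound by myogenic factors. These letters were found before at least 1 start for 11 of the 39 members with a promoter entry. Counted by single promoter and not by gene, the share over all promoters was 13%. For Adam19 they lay only before a start far inside the gene. Of the 10 tested members with the letters, 6 were lower, 2 higher and 2 not called, beside 33% of all genes called lower and 33.7% higher. This is given as a description only. Satellite cell and myoblast markers were lower in the same libraries for 6 of 10 genes, higher for 2 and not called for 2, and their part in the fall of Adamtsl2 was not tested.

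Genes that activate, inhibit or serve these proteases were read from lists chosen by role. Of 48 in the matrix 43 were tested, of which 11 were called higher and 19 lower, with a median log2 fold change of -0.08. These calls cover 69.8% of those tested, beside 66.7% of all genes. With library size as the only scaling, 18 were higher and 13 lower. In the plasminogen system, which activates Mmp precursors, the protease inhibitor Serpinb2 fell from 3.64 ± 0.411 CPM in WT to 0.207 ± 0.119 CPM in KO (-4.16, SE 0.33). The KO level of Serpinb2 rests on 2 to 6 counts in each library. The plasminogen activators Plat (-0.68, SE 0.05) and Plau (-0.26, SE 0.05) fell as well, Plau not with library size as the only scaling (-0.09, adjusted p 0.103), and Plat not in the per-library tables (0.40, adjusted p 0.322). Plaur, the receptor of Plau, was not called (0.02, adjusted p 0.848), although it was with that scaling (0.19, 0.0471). Plg, the plasminogen gene itself, had 13 counts over the 6 libraries, with 0 to 5 in each, and was not tested.

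Among inhibitors of other kinds, Tfpi2, a matrix-bound inhibitor of plasmin and other proteases, stood at 147, 149.7 and 146 CPM in WT replicates 1 to 3 and 35.7, 35.7 and 34 CPM in KO replicates 1 to 3. All KO libraries were far below WT (-2.07, SE 0.05, adjusted p 2.57e-28). The broad protease trap A2m also fell, from 0.947 ± 0.224 CPM in WT to 0.132 ± 0.0588 CPM in KO (-2.74, SE 0.48). A2m had only 73 counts over the 6 libraries, with 2 to 5 in each KO library. Reck, a membrane-anchored inhibitor of Mmp proteins, was not called (0.01, adjusted p 0.947).

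Of the proprotein convertases that cut the prodomains of membrane-type Mmp, Adam and Adamts enzymes, Furin fell from 272 ± 5.95 CPM in WT to 211 ± 16.4 CPM in KO (-0.37, SE 0.05) and Pcsk6 rose from 5.56 ± 0.62 CPM in WT to 15.6 ± 1.31 CPM in KO (1.5, SE 0.11). Pcsk5 (-0.34) and Pcsk7 (-0.21) fell slightly, and both calls were lost with library size as the only scaling (-0.17, adjusted p 0.0921, and -0.04, 0.58). In the per-library tables neither Pcsk6 (-0.15, adjusted p 0.415) nor Pcsk7 (0.00, adjusted p 0.987) was called. Bmp1, the procollagen C-proteinase, was not called (-0.08, adjusted p 0.0825), but was called lower in DESeq2 (-0.09, adjusted p 0.0294), with median-of-ratios factors (-0.09, adjusted p 0.0485) and without the low-count filter (-0.10, adjusted p 0.0364), and higher with library size as the only scaling (0.09, adjusted p 0.0346). The enhancer of Bmp1 with the higher level, Pcolce, stood at 411 ± 12.3 CPM in WT and 394 ± 10.3 CPM in KO and was not called (-0.06, adjusted p 0.2). With library size as the only scaling Pcolce was called higher (0.11, adjusted p 0.0171). The related Pcolce2, at a far lower level, rose from 4.46 ± 0.316 CPM in WT to 9.42 ± 0.729 CPM in KO (1.07, SE 0.13).

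Of 9 tested matrix-cutting enzymes of other classes, 6 were called higher, 2 lower and 1 not at all. The calls cover 88.9% of this list, beside 66.7% of all genes, of which 33.7% were called higher and 33% lower. The Dpp4 call did not hold in DESeq2 (0.85, adjusted p 0.0561) or when WT replicate 2 (0.62, adjusted p 0.109) or KO replicate 2 (0.57, adjusted p 0.183) was left out. The Hpse call did not hold in DESeq2 (-0.36, adjusted p 0.0762), with library size as the only scaling (-0.18, adjusted p 0.287), or when WT replicate 3 (-0.30, adjusted p 0.133), KO replicate 1 (-0.36, adjusted p 0.0634) or KO replicate 2 (-0.25, adjusted p 0.181) was left out, nor in the per-library tables (-0.32, adjusted p 0.533). The serine protease Htra1 stood at 159, 154 and 141 CPM in WT replicates 1 to 3 and 298, 318 and 297 CPM in KO replicates 1 to 3 (1.01, SE 0.05), and its change was smaller in the per-library tables (0.35, adjusted p 0.0186). Cathepsin Ctss, which is abundant in macrophages, went from 6.59 ± 1.37 CPM in WT to 36.2 ± 2.27 CPM in KO (2.44, SE 0.10), and the collagen-cutting Ctsk from 103 ± 6.28 CPM in WT to 177 ± 4.93 CPM in KO (0.78, SE 0.05). Ctsl and Ctsb, the most abundant proteases of the list, rose by 0.24 (SE 0.04) and 0.11 (SE 0.04) on the log2 scale. Of their exonic bases 26.8% and 12.8% are shared with other genes. The Ctsb call (adjusted p 0.0138) did not hold when WT replicate 1 (0.11, adjusted p 0.0643), WT replicate 2 (0.08, adjusted p 0.161) or KO replicate 3 (0.09, adjusted p 0.0799) was left out.

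The tetraspanins that carry Adam10 to the surface moved apart. Tspan15 rose from 17.7 ± 0.485 CPM in WT to 38.5 ± 2.88 CPM in KO (1.12, SE 0.07), Tspan33 went from 10.5 ± 0.204 CPM in WT to 3.06 ± 0.573 CPM in KO (-1.78, SE 0.14), and Tspan5, Tspan14 and Tspan17 were not called. Tspan14 was called lower without WT replicate 1 (-0.16, adjusted p 0.0403) or KO replicate 3 (-0.14, 0.0406), and Tspan17 higher with library size as the only scaling (0.28, 0.000973). Rhbdf2, a partner of Adam17, fell from 46.6 ± 1.39 CPM in WT to 27.8 ± 1.41 CPM in KO (-0.74, SE 0.06), but not in the per-library tables (0.06, adjusted p 0.62).

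Ligands that Adam proteins release from the cell surface also split, with 2 of 8 tested genes higher, 4 lower and 2 not called. The calls cover 75% of them, beside 66.7% of all genes. Hbegf stood at 80.8, 82.8 and 76.4 CPM in WT replicates 1 to 3 and 35.5, 34.8 and 33.4 CPM in KO replicates 1 to 3, with all KO below all WT libraries (-1.21, SE 0.06, adjusted p 8.48e-20). The per-library tables instead called Hbegf higher (0.31, adjusted p 0.000467). Ereg fell from 7.9 ± 1.07 CPM in WT to 1.32 ± 0.256 CPM in KO (-2.60, SE 0.18), and Btc rose from 7.32 ± 0.722 CPM in WT to 16.9 ± 1.42 CPM in KO (1.2, SE 0.10). These 3 bind receptors of the epidermal growth factor family. The cytokine Tnf was also called higher (0.98, SE 0.42, adjusted p 0.0377), but not in DESeq2 (0.95, adjusted p 0.123), without the low-count filter (0.96, adjusted p 0.0585), or when WT replicate 1 (1.03, adjusted p 0.0716), WT replicate 3 (0.66, adjusted p 0.22), KO replicate 2 (0.72, adjusted p 0.218) or KO replicate 3 (1.02, adjusted p 0.0584) was left out.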

How the data were processed

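RNA-seq counts of 6 libraries were analysed, 3 WT and 3 lncMREF KO, grouped by the labels' titles. The authors deposited raw counts per gene in a matrix of 21666 genes and in 1 table of 55359 genes per library, as whole numbers without normalisation. HISAT2 2.2.1, featureCounts 2.0.1 and mm10 are named per the submitters' processing notes; the sources used here do not name the annotation, the options or whether strand was used. The matrix was used, as the member rule names it; the per-library tables, whose totals ran from 5501088 to 9136354 counts, served as an alternative. Of the matrix identifiers 21632 matched GENCODE M21 and 34 did not; 22 further annotated genes with member symbols were not analysed here.

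Genes were kept by filterByExpr (minimum count 10, minimum total 15), scaled by TMM and tested with edgeR 4.0.16 (R 4.3.3), robust quasi-likelihood, genotype as the only term, Benjamini-Hochberg adjustment over all genes tested. The code was tested on simulated data. SE is the log2 fold change over the root of F, and ± is the SD over 3 libraries. Each library counted as 1 replicate. Replicate pairs differed beyond sampling noise (mean chi-square per gene 3.18 to 5.11), which does not tell technical from biological spread. Exonic lengths and shared bases are of merged GENCODE exons. Promoters come from RefSeq (GRCm38.p6); 39 members matched by symbol. Named with values in every library were the Timp genes, the members called with over 2-fold change and the 3 most abundant of the Mmp, Adam, and Adamts with Adamtsl families; other genes are given by mean or fold change. Protein sequences were not used, so Adam genes were split by known catalytic activity. Members and lists were chosen with earlier results of these data known. Alternatives were other scalings, no filter, DESeq2 1.42.0, limma 3.58.1 voom, a replicate block, leaving out each library, and the per-library tables. The result of 1 pathway gene is not reported here.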

Additional observations from a re-analysis of the deposited data

How the results depend on the processing

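On the matrix, median-of-ratios factors and limma voom kept direction and call for all 54 tested members, DESeq2 for 52 and no low-count filter for 53; leaving out any library kept them for 53, with member counts of 17 lower, 27 higher and, beyond 2-fold, 4 lower and 11 to 14 higher. The same replicate numbers mark no shared animal or batch in the labels, their deviations correlated at -0.025 to -0.000914, no WT library correlated best with the KO library of its number, and a replicate block changed no call of a member (17 lower, 28 higher; 10209 calls over all genes) but lost Hpse (-0.34, adjusted p 0.0501) and Tnf (0.93, 0.0562). Library size only turned Timp2 (0.11), Adam15 (0.11), Serpine2 (0.13), Bmp1 (0.09) and Pcolce (0.11), none of which was called with TMM scaling, and gave 18 pathway genes higher. The per-library tables gave 5436 calls over all genes; 28 members had enough counts, with 7 lower, 8 higher, and 1 lower and 3 higher by over 2-fold, and pathway genes split 4 lower to 3 higher. They turned Adam15 (0.85), Adam17 (0.47), Adamts10 (-0.15), Adamts17 (-0.11), Adamts6 (0.31), Adamtsl4 (0.09), Adamtsl5 (0.27), Mmp14 (-0.07), Mmp9 (0.11), Plat (0.40), Pcsk6 (-0.15), Rhbdf2 (0.06) and Hbegf (0.31), of which Adam15, Adam17, Adamts10 and Hbegf were called; they lost the calls of Adam8, Adam19, Adamts2, Mmp11 and Mmp28 and called Timp2 lower; the cause was not tested. Counts of 6 to 57 over 6 libraries left 7 members untested.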
